A study of Mus musculus with 6 samples.

Results

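The genes that encode the proteins of the cytosolic ribosome were followed in primary mouse neurons without Tlr7, which senses single-stranded RNA in endosomes, and in wild-type (WT) neurons. They were chosen by name: gene symbols that begin with Rpl, Rps or Rplp and a number were taken, and pseudogene names that contain "-ps", the Rps6k kinases and Rps19bp1 were left out. The rule found 84 of the 25814 genes counted, of which 52 belong to the large subunit and 32 to the small subunit, and it left out 20 names. Of the 84 genes, 81 had enough counts to be tested. The other 3, Rpl10l, Rpl39l and Rpl3l, are paralogs known from testis or striated muscle, and they had 0 to 6 counts in a library.

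Messenger RNA was sequenced from mixed primary neurons of cortex and hippocampus of the C57BL/6 strain, grown in Neurobasal and DMEM with B27 and harvested after 18 days in vitro. The 3 WT and the 3 Tlr7-/- libraries held 23272450 to 25696625 counts each. The labels do not say whether replicates are separate cultures or separate animals, and p-values then describe the spread of these libraries alone, which may be technical. The labels give no detail of how the Tlr7 allele was disrupted.

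Each cytosolic ribosome holds one copy of nearly every ribosomal protein, bound to ribosomal RNA, and proteins made in excess of the others are degraded. The messenger RNAs of this family are abundant, short and known for a tract of pyrimidines at the 5′ end, the TOP motif, through which the kinase mTORC1 controls their translation. In neurons these messages are also found in axons and dendrites, away from the nucleolus where ribosomes are assembled.

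The first bases of the messages are shown because they are the sequence feature for which the family is best known. RefSeq start windows on GRCm38.p6 matched 64 of the 84 genes, with 76 windows in all. The letters CTTTC, read on the gene's strand from 20 bases before to 50 after the start, were found in 44.7% of these windows and in 8.97% of all 32851 windows of the table. Another 2 motifs were searched on both strands over 300 bases. The ETS-family core CCGGAAG was found in 34.2% of the genes' windows against 8.86% of all windows. The letters TCTCGCGA were found in 15.8% against 0.995%. No occurrence of CTTTC overlapped one of CCGGAAG. A match is a run of letters and not a measured site. In the 30 bases from 10 before to 20 after the start, 16 genes held CTTTC. Of these, 6 are given below from 5′ to 3′ on the gene's strand, with the first CTTTC in capitals. Rpl7a and Rpl35 hold it again further on, where it is not marked.
Rpl7a, chr2:26910797-26910826, plus strand: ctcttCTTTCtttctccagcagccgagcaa
Rps10, chr17:27635225-27635254, minus strand: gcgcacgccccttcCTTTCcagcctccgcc
Rpl38, chr11:114668570-114668599, plus strand: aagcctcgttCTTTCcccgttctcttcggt
Rpl12, chr2:32961702-32961731, plus strand: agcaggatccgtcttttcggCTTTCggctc
Rplp2, chr7:141447641-141447670, plus strand: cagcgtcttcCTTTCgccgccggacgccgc
Rpl35, chr2:39005112-39005141, minus strand: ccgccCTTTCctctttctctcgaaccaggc

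The Tlr7-/- libraries did not form one group. Per the labels, replicate 1 is named in the style of the WT libraries, while replicates 2 and 3 have names of a second style. Along the main axis of variation over all genes (61.1% of the variance), replicates 2 and 3 scored 47.9 and 46.2, replicate 1 scored -22.3 and the WT libraries scored -29.9 to -15.7. The share of counts from the mitochondrial genome was 4.40% and 4.19% in replicates 2 and 3, and 2.60% to 3.14% in the other 4 libraries. Tlr7 itself was near the limit of detection, with 4 to 8 counts in a WT library and 3 to 5 in a Tlr7-/- library, so its level does not check the labels. Because all WT libraries carry the first style, the genotype and the style cannot be told apart in replicates 2 and 3. The main results for the family are given for replicate 1 and for replicates 2 and 3 apart. For many single genes and most lists of other genes, fold changes and counts are given for replicates 2 and 3 alone.

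The family as a whole took a smaller share of the counts in Tlr7-/- neurons, and nearly all of that difference lay in replicates 2 and 3. The 84 genes held 1.958%, 1.916% and 1.805% of counts in WT replicates 1 to 3. In Tlr7-/- replicates 1 to 3 they held 1.799%, 1.316% and 1.282%. The means were 1.89 ± 0.0789% in WT and 1.47 ± 0.289% in Tlr7-/- neurons (SD, n = 3 each), and the lowest WT library lay just above Tlr7-/- replicate 1. The difference between the means was -0.427 percentage points, and -0.406 without the most abundant member, Rps2. In bulk cultures, fewer cells of a type and less RNA per cell cannot be told apart.

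**Figure D1:**
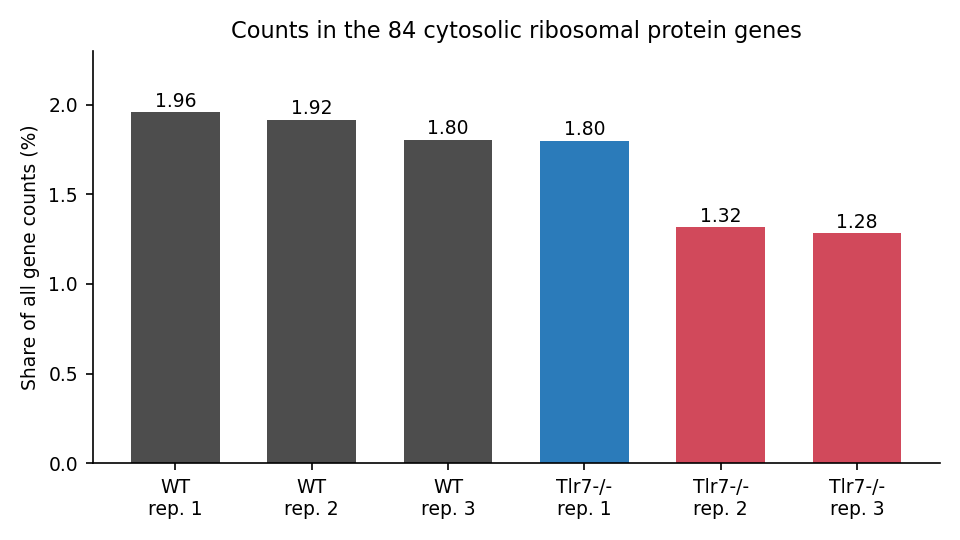
Share of all gene counts (%, vertical axis from 0) that fell in the 84 cytosolic ribosomal protein genes in each of the 6 libraries, 1 bar per library. Tlr7-/- replicate 1 at 1.799% stands next to the WT libraries, and Tlr7-/- replicates 2 and 3 stand at 1.316% and 1.282%.

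Levels between genes were compared as RPKM, which the authors scaled by gene length. Rplp1, an acidic protein of the P stalk that recruits elongation factors to the ribosome, had the highest level, 1006 ± 7.84 RPKM in WT (SD, n = 3). It was followed by Rpl41, the smallest protein of the large subunit, at 684 ± 19.3 RPKM and by Rps29 of the small subunit at 672 ± 21.2 RPKM. The WT libraries of Rpl41 and Rps29 overlapped, at 662 to 698 RPKM for Rpl41 and 656 to 696 RPKM for Rps29. The next in order were Rpl23a (514 ± 29.02 RPKM), Rps2 (511 ± 14.0 RPKM), Rpl19 (473 ± 22.1 RPKM), Rps15 (445 ± 20.01 RPKM) and Rpl7a (401 ± 0.836 RPKM). Rpl23a and Rps2 did not differ beyond their spread. In a second table, deposited by the authors for their own comparison, Rpl23a had a mean log2 CPM of only -0.97.

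At the low end of the tested genes stood Rps15a (26.4 ± 1.27 RPKM in WT), Rpl7l1, a nucleolar paralog of Rpl7 (20.6 ± 1.05 RPKM), Rpl27 (15.9 ± 1.63 RPKM) and Rpl10 (6.86 ± 1.91 RPKM). Rpl27 and Rpl10 are single-copy core proteins of the ribosome, and their low levels are taken up below with their copies. The tissue-restricted paralogs were close to the limit of detection. Rpl39l had 0 to 0.175 RPKM and Rpl3l had 0.0487 to 0.0927 RPKM in WT, while Rpl10l had no count in any library, where a count of 0 allows up to 0.117 to 0.129 CPM (3 counts).

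**Figure D2:**
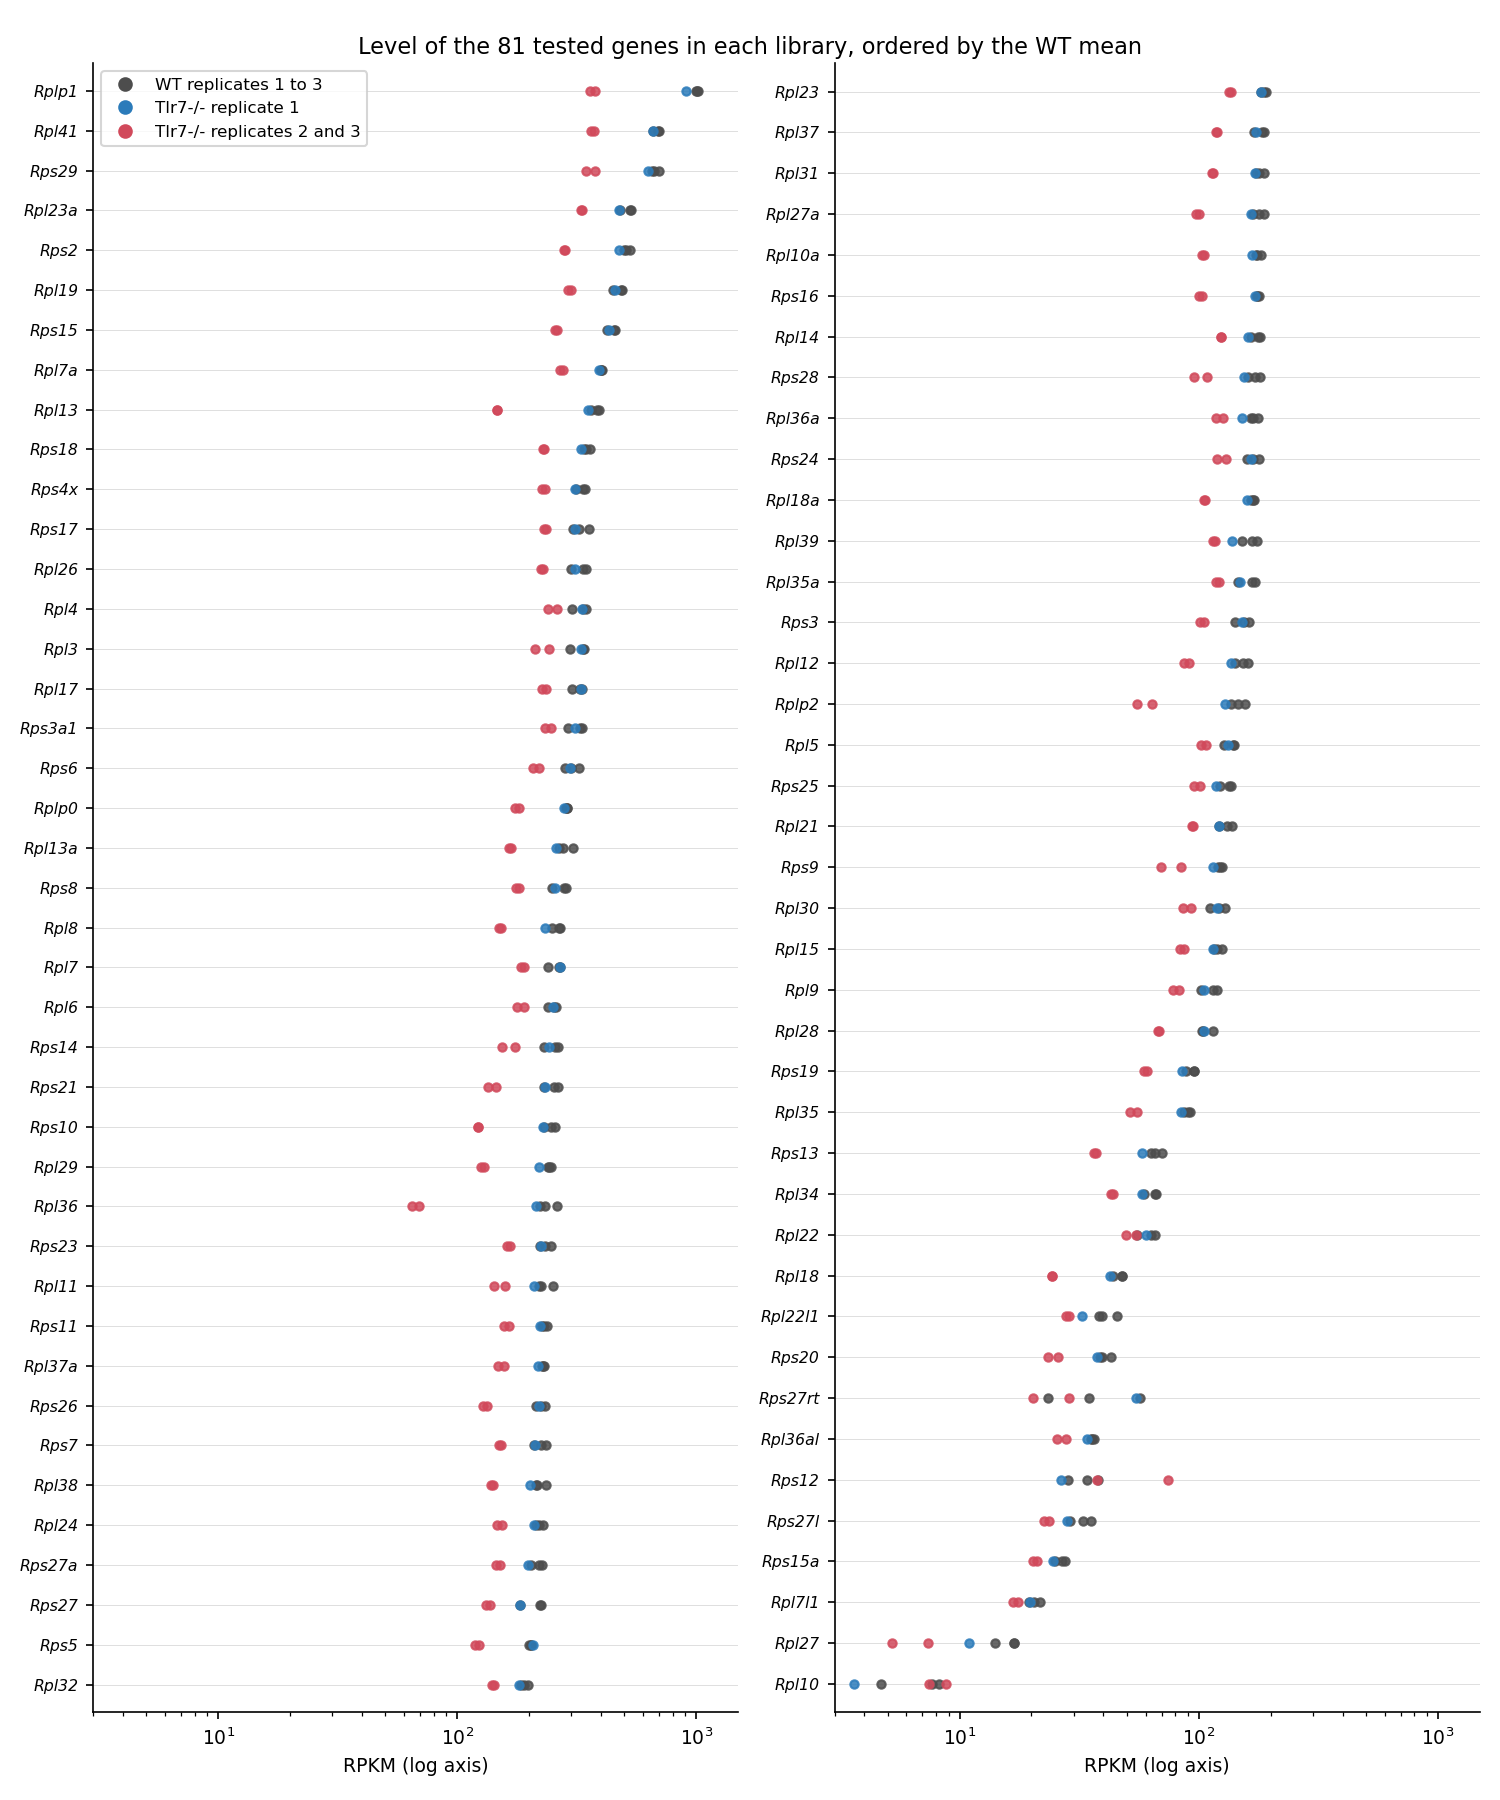
RPKM (log axis) of each of the 81 tested genes in every library, 1 row per gene in the order of the WT mean, with WT in grey, Tlr7-/- replicate 1 in blue and Tlr7-/- replicates 2 and 3 in red. The red points lie left of the other libraries in most rows, while Rps12 and Rpl10 near the bottom right do not follow that order.

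The comparison of all 3 Tlr7-/- with all 3 WT libraries asked whether loss of Tlr7 changed these genes. No member passed an edgeR adjusted p of 0.05 in either direction, as was true of all 13947 genes tested (0.0% lower and 0.0% higher). At an unadjusted p under 0.05, 56 of the 81 were lower and none higher, beside 12.6% and 15.6% of all genes. By DESeq2, 10 of the 81 fell and none rose, beside 4.75% of all genes that fell, and limma-voom called none. The log2 fold change was below 0 in 79 of the 81, with a median of -0.36 beside 0.001 for all genes tested. In 43 of the 81 every Tlr7-/- library lay below every WT library in CPM (counts scaled to library size with TMM factors), beside 16.2% of all genes. In none did all lie above (16.5% of all genes), and in 38 the groups overlapped. The authors' deposited table of their own comparison called 0 of the 83 members it lists at a false discovery rate under 0.05, beside 0.649% of its genes lower and 1.7% in either direction, with 60 at an unadjusted p under 0.05, beside 15.1% of its genes.

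The 8 members with the smallest p in this comparison were Rpl39, Rpl27, Rpl22l1, Rpl36a, Rps13, Rpl8, Rps27 and Rpl12. Rpl39, a small protein at the exit tunnel, had 115, 109 and 99.5 CPM in WT and 91.3, 79.6 and 81.1 CPM in Tlr7-/- neurons. The groups did not overlap. By edgeR the difference on the log2 scale was -0.36 ± 0.09 (SE; adjusted p 0.116). Rpl22l1, the paralog of Rpl22, had 25.8, 30.7 and 26.4 CPM in WT and 22.1, 19.8 and 20.5 CPM in Tlr7-/- neurons (log2 fold change -0.41 ± 0.10, adjusted p 0.116). Its groups did not overlap either, and its Tlr7-/- replicate 1 lay nearer to replicates 2 and 3 than to WT. The log2 fold changes of the other six ran from -0.97 (Rpl27) to -0.31 (Rpl36a), with adjusted p from 0.116 to 0.130, and Rps27 was the one of them whose groups overlapped.

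Within one style of library name, Tlr7-/- replicate 1 was compared with WT in a fit with 3 groups. None of the 81 genes passed the edgeR adjusted p of 0.05, beside 0.545% of all genes that fell and 0.889% that rose. At an unadjusted p under 0.05, 4 were lower and none higher, beside 7.23% and 8.2% of all genes. The log2 fold change was below 0 in 74 of the 81, with a median of -0.07. The medians of the 3 WT libraries themselves lay 0.06 and 0.02 above and 0.08 below their own mean on the log2 scale. The shift of replicate 1 was therefore within the spread of the WT libraries.

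Replicates 2 and 3 lay apart from that. Of the 81 genes, 76 fell in Tlr7-/- replicates 2 and 3 against WT and none rose, beside 25.2% of all genes that fell and 24.4% that rose. The median log2 fold change was -0.53, beside -0.002 for all genes. By subunit, 43 of 46 genes of the large subunit fell (median -0.48), as did 30 of 32 of the small subunit (median -0.53) and all 3 of the P stalk. The 5 that passed in neither direction were Rpl22, Rpl7l1, Rps27rt, Rpl10 and Rps12. Against Tlr7-/- replicate 1, the same 2 libraries had 69 members lower and 1 higher, beside 16.6% and 15% of all genes, with a median of -0.46. The 2 comparisons share replicates 2 and 3 and are not independent.

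**Figure D3:**
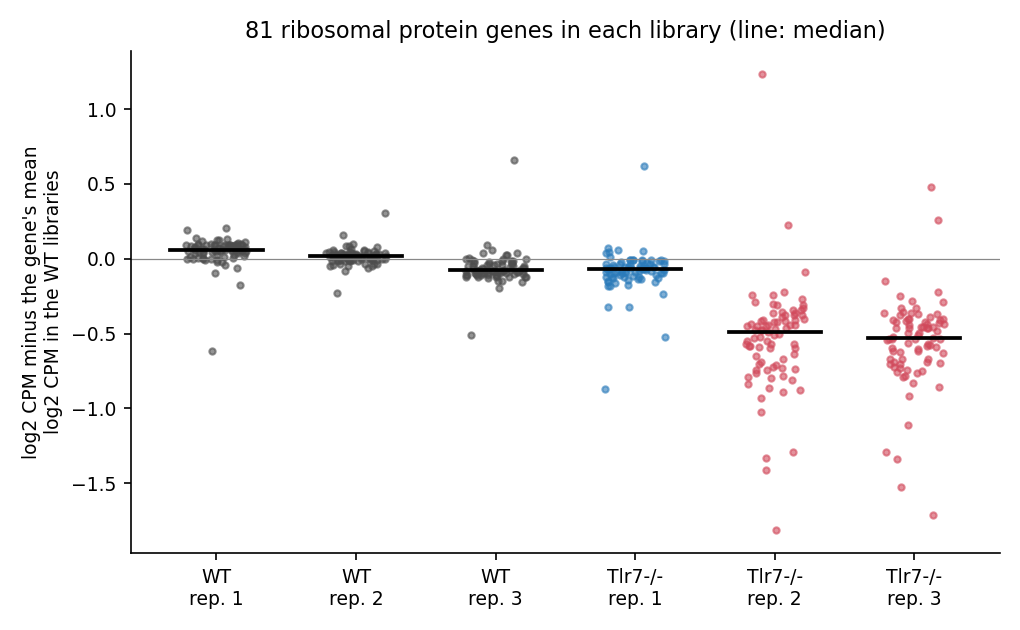
log2 CPM of each of the 81 tested genes minus that gene's mean log2 CPM in the WT libraries (vertical axis), by library, with 1 point per gene and a line at the median. WT medians are 0.06, 0.02 and -0.08. The median is -0.07 in Tlr7-/- replicate 1, beside -0.49 and -0.53 in the other Tlr7-/- libraries.

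Rpl36, a protein of the large subunit, had the lowest fold change of the family. It had 114, 101 and 96.2 CPM in WT and 93.5, 29.4 and 31.6 CPM in Tlr7-/- replicates 1 to 3. Replicate 1 stood at 90.3% of the WT mean, and replicates 2 and 3 stood at 28.4% and 30.5%. The log2 fold change of replicates 2 and 3 against WT was -1.76 ± 0.09 (SE; edgeR adjusted p 3.19e-06), and that of replicate 1 was -0.15 ± 0.10 (adjusted p 0.537). Rpl13, also of the large subunit, had 329, 322 and 301 CPM in WT and 298, 129 and 130 CPM in Tlr7-/- neurons. Replicates 2 and 3 stood at about the same 40.8% and 40.9% of the WT mean. Rpl13 overlaps the gene Gm20388 on the same strand, which held 16816 counts over all libraries against 37063 for Rpl13.

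The proteins of the P stalk, Rplp0, Rplp1 and Rplp2, form the flexible arm of the large subunit that binds translation factors. Rplp1 had 536, 542 and 537 CPM in WT, a spread of 3.58 CPM (SD, n = 3), and 490, 203 and 213 CPM in Tlr7-/- replicates 1 to 3. Rplp2, the partner with which Rplp1 pairs, had 177, 164 and 154 CPM in WT and 147, 65.4 and 76.2 CPM in Tlr7-/- neurons. Rplp0, the base that anchors the pairs, had 490, 491 and 483 CPM in WT and 482, 311 and 326 CPM in Tlr7-/- neurons. In all 3 genes the Tlr7-/- libraries lay below the WT libraries, by a small margin in replicate 1. The log2 fold changes of replicates 2 and 3 against WT were -1.37 ± 0.06 for Rplp1 (edgeR adjusted p 1.18e-06), -1.22 ± 0.09 for Rplp2 (1.56e-05) and -0.62 ± 0.05 for Rplp0 (3.85e-05). In replicate 1 they were -0.14, -0.17 and -0.02, with adjusted p of 0.391, 0.492 and 0.934.

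Rpl5 and Rpl11 bind the 5S ribosomal RNA and, when free of ribosomes, the p53 regulator Mdm2. Rpl5 had 340, 335 and 305 CPM in WT and 322, 271 and 260 CPM in Tlr7-/- neurons, and the groups overlapped through replicate 1. Rpl11 had 257, 229 and 224 CPM in WT and 216, 170 and 154 CPM in Tlr7-/- neurons, without overlap. Both fell in replicates 2 and 3 against WT, by 0.30 (Rpl5, edgeR adjusted p 0.00427) and 0.55 (Rpl11, 0.000388) on the log2 scale. The 19 members that are known in humans as genes of Diamond-Blackfan anaemia all fell in replicates 2 and 3 (median -0.56), beside 76 of the 81 members and 25.2% of all genes, and none passed in replicate 1. With the GC and length trend removed, 12 of the 19 fell, beside 43 of the 81 members and 17.5% of all genes. Rps19, one of these, stood at 92.6% of the WT mean in replicate 1 and at 66.7% and 69.2% in replicates 2 and 3.

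Among paralogs, Rpl36al had 51.4, 52.0 and 53.0 CPM in WT and 50.03, 39.1 and 42.8 CPM in Tlr7-/- neurons. It fell by 0.35 on the log2 scale in replicates 2 and 3 (edgeR adjusted p 0.00316), as did Rps27l, a p53-induced paralog of Rps27, by 0.42 (adjusted p 0.0117). Rpl22 had 147, 140 and 122 CPM in WT and 135, 127 and 117 CPM in Tlr7-/- neurons. Its groups overlapped, and its fold change of -0.16 ± 0.08 in replicates 2 and 3 did not pass (adjusted p 0.140). Rps27rt, a retrocopy of Rps27 on another chromosome, varied from 9.39 to 22.8 CPM within WT and from 8.59 to 22.1 CPM within Tlr7-/- neurons. Its transcript matches that of Rps27 at 100% over 341 bases, so the division of reads between them is uncertain.

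Rps12 and Rpl10 were the 2 members with a log2 fold change above 0 in Tlr7-/- neurons, and both have a near-identical copy elsewhere in the genome. The copy had more counts than the gene in every library, except for Rps12 in Tlr7-/- replicate 2. Rps12, a small subunit protein (GRCm38 chr10:23785183-23787275, minus strand), had 31.3, 23.4 and 28.1 CPM in WT and 21.9, 64.6 and 32.8 CPM in Tlr7-/- replicates 1 to 3. The high value lay in replicate 2 alone, and the groups overlapped. Rpl10, a late-joining protein of the large subunit (chrX:74270812-74273135, plus strand), had 7.43, 7.97 and 4.52 CPM in WT and 3.53, 7.55 and 8.996 CPM in Tlr7-/- neurons, again with overlap. Their log2 fold changes over all libraries were 0.53 ± 0.37 (Rps12) and 0.01 ± 0.37 (Rpl10), with edgeR adjusted p of 0.356 and 0.986. Rpl10 was also the 1 member that rose in replicates 2 and 3 against replicate 1 (1.23, adjusted p 0.0247).

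A read from a stretch that a gene and its copy share matches both, and the sequencing kit gave 75 cycles. The copies are Rps12-ps3 (chr19:59322290-59322783) and Rpl10-ps3 (chr9:50344201-50344968). In transcripts of GENCODE M21 the 399 coding bases of Rps12 and Rps12-ps3 were identical, as were the 645 coding bases of Rpl10 and Rpl10-ps3. Rpl35 and its copy Gm2000 (chr1:156366040-156366484) differed at 1 of 372 coding bases, written C117T, counted from 1 at the first coding base with the base of Rpl35 first. Of the 298 stretches of 75 bases in that sequence, 223 were the same in both. The first 75 coding bases of Rps12 and its copy, and bases 80 to 154 of Rpl35 and its copy with the differing base in capitals, are given from 5′ to 3′.
Rps12: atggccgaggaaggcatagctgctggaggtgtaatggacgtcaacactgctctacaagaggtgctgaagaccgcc
Rps12-ps3: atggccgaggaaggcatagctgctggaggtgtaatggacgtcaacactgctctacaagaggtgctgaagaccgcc
Rpl35: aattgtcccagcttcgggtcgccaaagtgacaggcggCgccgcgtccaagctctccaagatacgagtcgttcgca
Gm2000: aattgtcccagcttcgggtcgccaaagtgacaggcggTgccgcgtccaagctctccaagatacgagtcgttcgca

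Summed with their copies, both genes fell in replicates 2 and 3. Rps12 held 16.3%, 12.6% and 16.6% of the counts of its pair in WT and 13.2%, 51.7% and 26.6% in Tlr7-/- replicates 1 to 3. The pair summed to 192, 187 and 169 CPM in WT and to 166, 125 and 123 CPM in Tlr7-/- neurons, so that all Tlr7-/- libraries lay below WT. The summed pair of Rps12 fell by 0.56 on the log2 scale in replicates 2 and 3 against WT (edgeR adjusted p 0.000179), and that of Rpl10 fell by 0.38 (adjusted p 0.00153). Rpl10 itself held 1.49% to 4.93% of its pair. Summation was chosen after the values were seen.

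Rpl27 had fewer counts than its copy Rpl27-ps3 in every library, 134 to 411 against 2274 to 4289. Rpl27 had 14.0, 16.7 and 16.7 CPM in WT and 11.0, 7.72 and 5.48 CPM in Tlr7-/- neurons, without overlap, and its log2 fold change in replicates 2 and 3 was -1.26 ± 0.16 (edgeR adjusted p 0.000261). Summed with the copy it fell by 0.68 (adjusted p 8.52e-05). Rpl35 held 46.3% to 51.2% of its pair in every library and fell by 0.67 alone and by 0.60 as a pair. With 21 copies of 17 members summed, 78 of 81 fell in replicates 2 and 3 against WT, beside 25.2% of all genes. The abundant copies of these 4 genes were among the 21. Without the 4 genes, 74 of 77 fell. The other 17 copies held at most 64 counts in a library.

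**Figure D4:**
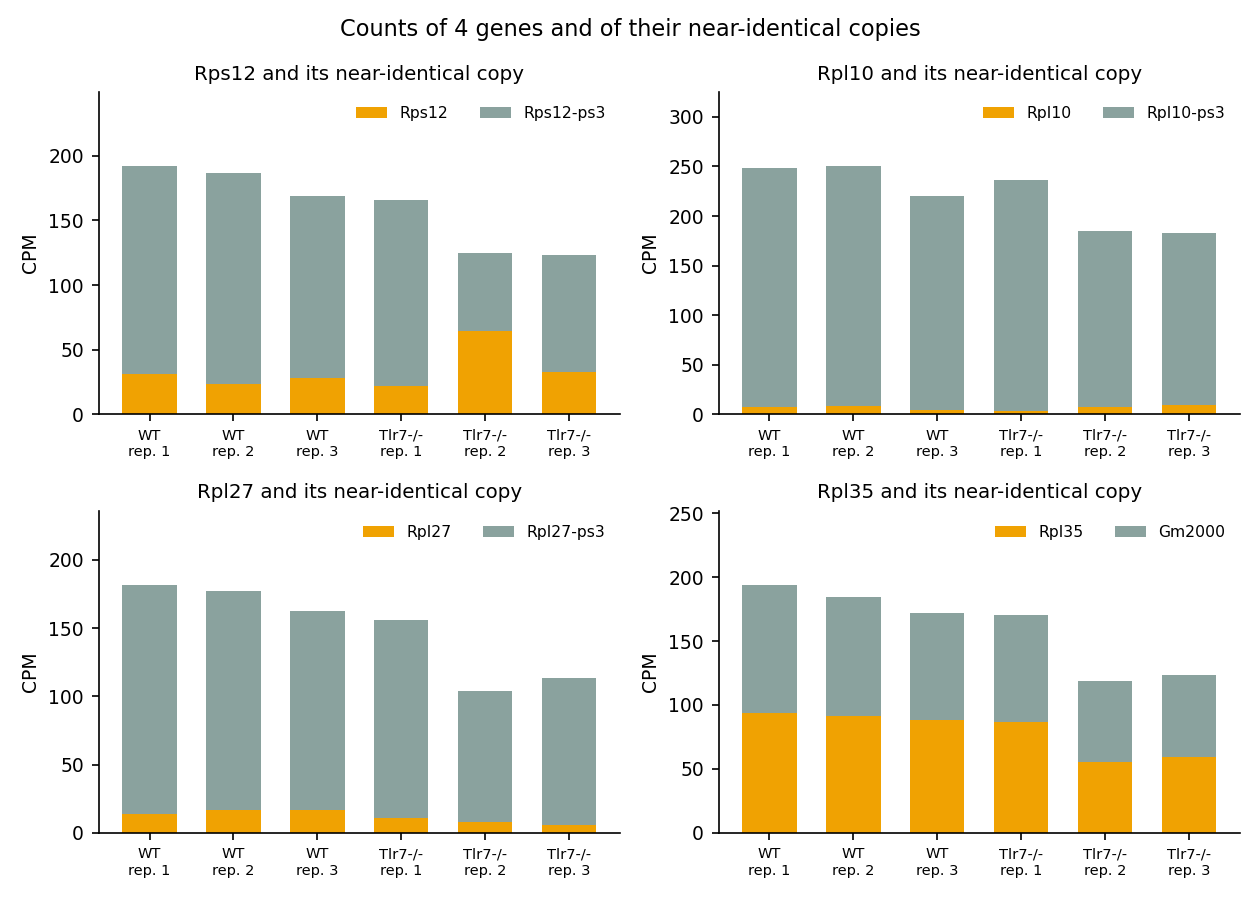
CPM (vertical axis from 0, 1 bar per library) of Rps12, Rpl10, Rpl27 and Rpl35 in orange, stacked with that of their near-identical copies in grey-green. The height of each bar is lower in Tlr7-/- replicates 2 and 3 than in the other 4 libraries, while the orange part of Rps12 is 51.7% of the pair in Tlr7-/- replicate 2 and 12.6% to 26.6% in the other 5 libraries.

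The family is unusual in transcript length, and length and GC content moved with the difference. The longest protein-coding transcripts of the 81 genes had a median of 914 bases against 3251 for all genes tested, and 3.62% of all genes were shorter than that. Their GC content had a median of 51.6% against 50.3%. Across the 81 genes, the log2 fold change of replicates 2 and 3 against WT had r = -0.46 (rho -0.58) with GC content and r = 0.22 (rho 0.29) with length. Across all genes tested, r was -0.50 with GC content and 0.38 with length. Genes are not independent replicates in these values. In the 27 members of lowest GC content the median log2 fold change was -0.42, in the middle 27 it was -0.47, and in the highest 27 it was -0.67. The median of all 81 was -0.53 as counted. It was -0.50 with each library's trend over GC content alone removed, and -0.11 with the trend over length alone removed.

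Once each library's trend over GC content and transcript length was taken out, a smaller shift was left. In replicates 2 and 3 against WT, 43 of the 81 genes then fell and 3 rose, beside 17.5% and 13.5% of all genes, and the median was -0.18. The 3 that rose were Rps15 (0.47, edgeR adjusted p 0.000583), Rpl38 (0.28, 0.00863) and Rps12 (1.36, 0.0456). Rps15 had 310, 307 and 284 CPM in WT and 292, 186 and 182 CPM in Tlr7-/- neurons, and its fold change was -0.71 ± 0.06 before the trend was removed. It has the highest GC content of the members, 62.4%. In replicate 1 against WT the median was 0.05 with the trend removed, and no member passed by edgeR (1 lower and 1 higher at an unadjusted p under 0.05, beside 7.71% and 6.87% of all genes), beside 0.603% of all genes that fell. Against replicate 1, replicates 2 and 3 then had 37 members lower and 2 higher, Rpl10 and Rps15, beside 11.1% and 7.41% of all genes.

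All 3 genes of the P stalk still fell with the trend removed, Rplp1 by 0.67 (edgeR adjusted p 5.46e-05), Rplp2 by 0.80 (0.000292) and Rplp0 by 0.31 (0.00209). Rpl36 fell by 0.67 (0.000472) and Rpl13 by 0.74 (5.46e-05). Rps20, a small subunit protein of 41.3% GC content, had the lowest value, -1.03 (0.000118), beside -0.64 before. Its longest protein-coding transcript, whose length entered the trend, has 3706 bases against a median of 914 for the tested members. Rps15a, at 5179 bases, likewise went from -0.28 to -0.56. Whether these long transcripts are the ones expressed was not tested. Rps10 and Rpl29, which had fallen by 0.92 and 0.86, were at -0.13 (adjusted p 0.0888) and -0.04 (0.591). By subunit, 25 of 46 genes of the large subunit and 15 of 32 of the small subunit fell, beside 17.5% of all genes.

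**Figure D5:**
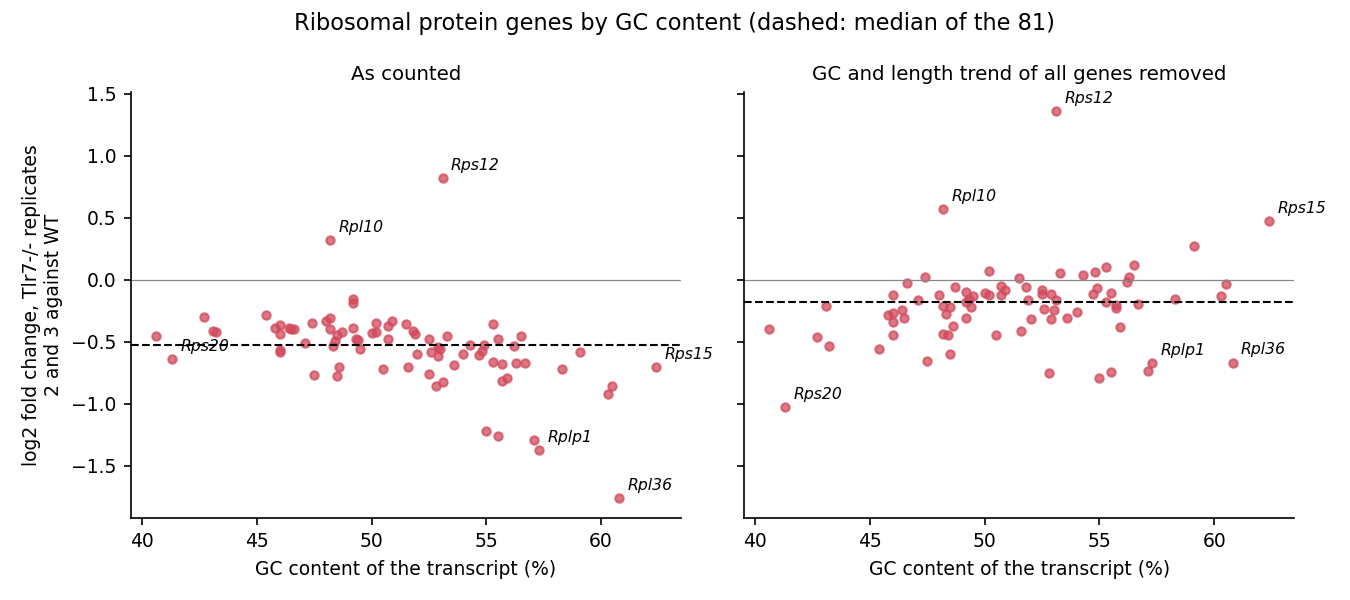
log2 fold change of Tlr7-/- replicates 2 and 3 against WT (vertical axis) by GC content of the transcript (%, horizontal axis) for the 81 tested genes, as counted on the left and with the GC and length trend of all genes removed on the right, with the median dashed. The median is -0.53 on the left and -0.18 on the right, and Rps15 at 62.4% GC content changes sign between the panels.

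Ribosomal proteins outside the name rule were read beside the family. Rpsa, a small subunit protein also known as the laminin receptor precursor, had 753, 794 and 778 CPM in WT and 752, 504 and 547 CPM in Tlr7-/- neurons. Rack1, the scaffold on the head of the small subunit, had 290, 288 and 276 CPM in WT and 286, 194 and 187 CPM in Tlr7-/- neurons. Replicate 1 lay at or inside the WT range in Rack1 and just below it in Rpsa. Against WT, in replicates 2 and 3, Rpsa fell by 0.56 and Rack1 by 0.58 on the log2 scale, with edgeR adjusted p of 9.57e-05 and 6.33e-05 in that order. Fau, a fusion to a small subunit protein, was at -0.50 and did not pass (adjusted p 0.243). It held only 10.45% to 23.04% of the counts of its pair with a near-identical copy, Gm9843. That pair summed to 168 to 178 CPM in WT and to 161, 85.5 and 84.9 CPM in Tlr7-/- replicates 1 to 3.

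Other genes of the translation apparatus were taken from lists of the pathway. In replicates 2 and 3 against WT, 8 of 11 elongation factors fell and none rose (median -0.39), among them Eef1d (-0.46 ± 0.07, edgeR adjusted p 0.000488) and Eef1b2 (-0.46 ± 0.06, 0.000292), exchange factors for eEF1A. Of 37 initiation factors, 18 fell and 7 rose (median -0.20), beside 25.2% and 24.4% of all genes. With the GC and length trend removed 15 of the 37 fell and 1 rose, beside 17.5% and 13.5%. Of the 11 elongation factors 7 then fell and 1 rose. Eif3a, the large scaffold of eIF3, rose by 0.55 (0.000112) and Eif5b, which joins the subunits, by 0.50 (0.000426). Both of these were above WT in every Tlr7-/- library. With the trend removed Eif3a was at 0.25 (adjusted p 0.00576) and Eif5b at 0.05 (0.599). Of 21 other messages known to carry a TOP motif, 14 fell and 1 rose, but most of these are elongation factors, initiation factors or ribosomal proteins already described. Of the 6 others, 3 fell and 1 rose (median -0.19). With the trend removed 12 of the 21 fell and none rose, beside 17.5% and 13.5% of all genes. Of the 6 others 2 then fell and none rose.

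The factors that build ribosomes were called about as often as all genes. Of 72 ribosome biogenesis genes, 16 fell and 17 rose in replicates 2 and 3 against WT, with a median of 0.06, beside the 25.2% and 24.4% of all genes. Nhp2, of the box H/ACA particles that modify ribosomal RNA, fell by 0.66 (edgeR adjusted p 0.000291) and Rrp9, of the U3 particle, by 0.56 (0.00194). Of 30 genes of mTORC1 and of the control of TOP messages, 7 fell and 11 rose, and with the GC and length trend removed 4 fell and 6 rose, beside 17.5% and 13.5% of all genes. Deptor, an inhibitor of mTOR, had 9.66, 9.47 and 8.18 CPM in WT and 17.4, 18.0 and 14.4 CPM in Tlr7-/- neurons, and rose by 0.93 in replicate 1 (adjusted p 0.0317) and by 0.83 in replicates 2 and 3 (0.000775). Tsc1, which restrains mTORC1, rose by 0.58 in replicates 2 and 3 (0.000127) and was at 0.30 in replicate 1 (0.123). With the trend removed Deptor no longer passed, at 0.81 in replicate 1 (0.0605) and 0.37 in replicates 2 and 3 (0.0747), while Tsc1 was at 0.40 in replicates 2 and 3 (0.00218).

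Other families of short, abundant messages were read for comparison. Of 78 genes of the mitochondrial ribosome, 53 fell in replicates 2 and 3 against WT and none rose (median -0.34, median length 1328 bases), beside 25.2% and 24.4% of all genes. Of 75 tested nuclear genes of the respiratory chain, 66 fell and 1 rose (median -0.42, median length 824 bases). With the GC and length trend removed these counts were 29 and 2, and 20 and 5, beside 17.5% and 13.5% of all genes. In replicate 1 against WT, without that removal, the median was -0.095 for the mitochondrial ribosome and -0.109 for the respiratory chain. It was -0.069 for the 81 cytosolic ribosomal protein genes. No test of the difference between these families and the cytosolic ribosomal proteins was made.

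The summed level of marker lists was read beside the family. Neuronal markers, 12 of 12 counted in every library, summed to 7155 to 7329 CPM in WT and 7093 to 7417 CPM in Tlr7-/- neurons. The sum does not show changes of single markers. In replicates 2 and 3 against WT, 5 of the 12 fell and 5 rose, with log2 fold changes from -0.98 to 0.57. Of the 8 astrocyte markers 2 fell and 2 rose, beside 25.2% and 24.4% of all genes (edgeR adjusted p under 0.05). Markers of the oligodendrocyte lineage summed to 1464 to 1514 CPM in WT and to 1059, 758 and 890 CPM in Tlr7-/- replicates 1 to 3, with 11 of 12 counted in every library. Of the 11 tested, 8 fell and none rose in replicates 2 and 3 against WT, beside 25.2% and 24.4% of all genes. The median log2 fold change of these 11 was -1.12 there and -0.44 in replicate 1. Gpr17 of that lineage had 230 to 310 CPM in WT and 114 to 138 CPM in Tlr7-/- neurons. The median of the ribosomal protein genes, as log2 CPM against the WT mean, was -0.07, -0.49 and -0.53 in Tlr7-/- replicates 1 to 3. Markers of astrocytes (8 of 8 counted) summed to 4933 to 5166 CPM in WT and 4158 to 5207 CPM in Tlr7-/- neurons, and those of dividing cells (8 of 8) to 93.6 to 135 and 53.0 to 118 CPM. Microglial markers (6 of 8) summed to 2.2 to 14.7 and 3.6 to 17.2 CPM, fibroblast and pericyte markers (7 of 8) to 25.2 to 29.02 and 23.2 to 40.2 CPM. Endothelial markers (3 of 6, with Cdh5 at 0) summed to at most 3.4 CPM and red blood cell markers (2 of 5, with Hbb-bt and Alas2 at 0) to at most 1.3 CPM. The part of these cells, and of the mitochondrial share, in the fall of the ribosomal protein genes was not tested.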

How the data were processed

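Per the labels, libraries were made from total RNA with a stranded TruSeq mRNA kit. Per the submitters' processing notes the build was GRCm38.p6, and bcl2fastq, HISAT2, featureCounts and edgeR are named without versions or roles. Whether counting used the strand is not given in the sources used here, and 17 members overlap another counted gene, 15 of them on the opposite strand only. The deposited table holds raw total counts, per the file headers, and RPKM values that the authors scaled by gene length and mapped reads. A second deposited table holds the authors' log2 fold changes, mean log2 CPM and false discovery rates (adjusted p-values).

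From the counts, genes were filtered with filterByExpr, libraries scaled by TMM, and groups compared in R 4.3.3 by the two-sided quasi-likelihood test of edgeR 4.0.16 (robust glmQLFit). P-values were adjusted by Benjamini and Hochberg's method over 13947 genes (threshold 0.05). A fit with 3 groups gave the contrasts within the Tlr7-/- group, and all libraries shared one estimate of the spread, so that the lone replicate 1 is assumed to vary like the others. Alternatives used DESeq2 1.42.0, limma 3.58.1 and voom, limma on log2(RPKM + 0.1, 0.5 or 1), other scalings and filters, a replicate block, the name style as covariate, and each library left out. GC content and length came from the longest protein-coding transcript in GENCODE M21, and each library's trend with them (natural spline, 5 degrees of freedom) entered as an offset. Copies were found with blastn 2.17.0 at 90% identity over 60% of the shorter transcript and 150 bases. Coding sequences are the longest open reading frames. Floors cover counting error only. The procedure was tested on simulated data.

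The members and lists were chosen with earlier results of these data known. Named were the members of highest (8) and lowest level, the 8 with the smallest p, those of opposite sign, the stalk, the 5S particle, paralogs, ribosomal proteins outside the rule, and 2 genes of each pathway list by smallest p. Rpl36, Rpl13, Rpl22, Rpl38, Rps10, Rps19, Rps20, Rpl29, Rpl35 and the genes past a threshold in small counts were named after their values were seen. Marker lists are given as sums, with counts of called genes for neurons, astrocytes and the oligodendrocyte lineage. A listed gene outside the name rule is not reported here. Genes of most similar profile are not given, because the libraries fall into separate clusters. Unique counts were not used here. Figures were drawn with matplotlib 3.10.9.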

Additional observations from a re-analysis of the deposited data

Results flagged for a closer look

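Libraries of one genotype differed from each other in this family. Against Tlr7-/- replicate 1, Tlr7-/- replicates 2 and 3 had 69 of the 81 genes lower and 1 higher (edgeR adjusted p under 0.05, fit with 3 groups), beside 16.6% and 15% of all genes. The 1 higher gene, Rpl10, did not pass in that direction once its counts were summed with those of its copy. The difference between replicate 1 and replicates 2 and 3 coincides with the style of the library name, and its cause was not tested.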

How the results depend on the processing

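In Tlr7-/- against WT, edgeR called 0 members under every scaling, filter and covariate tried with all 6 libraries, DESeq2 called 10 lower, and leaving out 1 library gave 0 to 76 lower, the 76 without Tlr7-/- replicate 1 (beside 24.7% of all genes). The median log2 fold change was -0.53 to -0.27 with 1 library left out, -0.069 with the name style as covariate and -0.054 with the length trend alone removed. The share of counts differed by -0.594 to -0.336 percentage points with 1 library left out. Same-numbered libraries did not deviate together in all pairs (r = 0.23, -0.10 and 0.24, with the second WT library closest to another number), so the numbers were not read as pairs. With a replicate block 0 members were called and the median was -0.37.

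In replicates 2 and 3 against WT, 43 members were lower and 3 higher with the GC and length trend removed, 43 and 3 (median -0.18) when that trend was fitted without the members, and 34 and 2 (median -0.11) with length alone. GC alone left 76 lower. Of all 13935 genes, the settings in that order called 2445, 2424, 3039 and 2809 lower. They called 1878, 1892, 2597 and 2662 higher. In replicates 2 and 3 against replicate 1 the first 3 settings gave 37 and 2 (median -0.24), 39 and 2 (median -0.26), and 30 and 1 (median -0.16). Of all 13935 genes they called 1540, 1519 and 2141 lower, and 1033, 1034 and 1504 higher. With copies summed, or without the genes that have an abundant copy, 0 were higher there. In replicate 1 against WT the median was 0.046, 0.05 and 0.043 under the 3 settings, so its sign is not fixed. These last settings beyond the joint trend were chosen after seeing the data.

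Of single genes against WT, Rps15 was at 0.36 (adjusted p 0.183) in all libraries and 0.47 in replicates 2 and 3 with the trend removed, and Rps27 at 0.041 and 0.066. Rpl10 was at -0.06 by limma-voom, -0.105 (log2 RPKM, pseudocount 0.1), -0.095 (0.5, with or without a filter) and -0.085 (1), -0.044 with the replicate block, -0.91 with the name style, -0.264 to 0.319 with 1 library left out (below 0 without WT replicate 3 or Tlr7-/- replicate 2 or 3), and -0.25 (all libraries) or -0.38 with copies summed. Rps12 was at -0.33 with the name style, -0.007 (without Tlr7-/- replicate 2) to 0.817 with 1 library left out, and -0.40 or -0.56 with copies summed. Rps27rt was at 0.53 with the name style, -0.567 to 0.291 with 1 library left out (above 0 without WT replicate 3 or Tlr7-/- replicate 2 or 3), and 0.22 with the trend removed. The causes were not tested. Alternatives with unique counts were not run. The low counts of Rpl10, Rpl27 and Rps27rt limit their precision.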

Other observations

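The authors' deposited table of their own comparison lists 83 of the 84 genes. Among these the log2 fold change was below 0 in 79 and above 0 in 4, with a median of -0.41 beside 0.01 for all genes, and the smallest false discovery rate was 0.0624, for Rps10. The deposited tables differ in the levels of some genes, among them genes with a near-identical copy. Rpl23a and Rpl24 had a mean log2 CPM of -0.97 and -1.52 in the authors' deposited table. In the count table they had means of 308 and 160 CPM in WT. They are among the 4 above 0, at 0.65 and 0.11. The copy search found no copy with counts for either, and the cause was not tested. In the authors' deposited table Rpl10 had a mean log2 CPM of 5.71 and a log2 fold change of -0.33, and Rpl10-ps3 had a mean log2 CPM of -0.93, whereas the count table gave Rpl10-ps3 more counts than Rpl10 in every library. Rps12 was at -0.44 in the authors' deposited table.

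Fau, outside the name rule, also has an abundant copy, and it held 10.45% to 23.04% of its pair with Gm9843. The pair of Fau summed to 168 to 178 CPM in WT and to 161, 85.5 and 84.9 CPM in Tlr7-/- replicates 1 to 3.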
